A study of Sus scrofa with 6 samples.

Results

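Heart muscle draws most of its energy from long-chain fatty acids and turns to glucose when supply or load changes. Fatty acids reach it as lipoprotein triglyceride, which lipoprotein lipase splits at the vessel wall and which ANGPTL4, a secreted inhibitor of that lipase, holds back. Inside the cell the carnitine shuttle carries the fatty acids into mitochondria for beta oxidation, and the pyruvate dehydrogenase kinases close the entry of pyruvate. Many genes of these steps are targets of nuclear receptors of the PPAR family, which bind DNA together with a retinoid X receptor.

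Described here are 7 genes of this fuel switch in the left atrium of the pig: PDK4, ANGPTL4, LPL, RXRG, CPT1B, HADHA and HADHB. All probe sets whose annotation gives exactly 1 of these symbols were taken, which yielded 12 of the 24123 probe sets in the table (and 7 of the 6765 genes that such probe sets name): 3 for HADHB, 2 each for PDK4, ANGPTL4 and LPL, and 1 each for RXRG, CPT1B and HADHA. The 7 genes were put together with their levels in all 3 groups known, so their values and differences are a description, and no p-value is given for them. All 12 probe sets passed the filter on dim signals, and each read above the filter's intensity of 60.8 on every array.

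The samples were left atria of 6 male Lanyu miniature pigs aged 18 months, 1 array per animal and 2 animals per group, all on the usual diet. The NC pigs were normal controls, for which no operation is recorded. In the MR pigs a hole of 2.8 mm cut into the posterior mitral leaflet had made the valve leak, and they were killed 12 months later. The MRV pigs carried the same lesion for as long and were given valsartan, which blocks the AT1 receptor of angiotensin II, at a daily 3.43 mg/kg from 1 week ahead of the operation. Regurgitation and the operation that made it therefore cannot be told apart in any comparison with NC. The sources used here do not give the time since the last meal.

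Values are intensities of the deposited table, on a linear scale. The lowest and highest values of all arrays together were 4.8 and 27167, and array medians lay between 90.2 and 93.4. They rank arrays within a probe set, and levels of different probe sets are not set against each other. Of the 11 atrial markers 5 were on the array, and their summed intensity was 49925 and 51652 in NC, in MR 46792 and 52141, and in MRV 51823 and 50565. Among them NPPA and MYL4 read from 18414 to 20170 and from 21034 to 21842. SLN read 5369 in MR1 and 8530 to 10033 elsewhere, GJA5 read 268 to 584, and NR2F2 read 568 to 805. MYL2, the ventricular regulatory light chain, read 203 and 325 in NC, in MR 10693 and 2318, and in MRV 152 and 954. Of the 5 ventricular markers 4 were on the array, MYL2 among them, and their summed intensity was 29473 and 32029 in NC, in MR 42413 and 34386, and in MRV 29944 and 29846. On the log2 scale their MR minus NC differences ran from 0.02 to 4.19, the latter for MYL2, with a median of 0.16. Adipocyte markers (13 of 15 on the array) summed to 6942 and 4627 in NC, in MR 3883 and 4576, and in MRV 4246 and 2715. Of their defining genes ADIPOQ, the adiponectin gene, read 20.3 to 35.1 on all arrays, LEP read 112 to 145, and PLIN1 has no probe set named here. Endothelial markers (11 of 12) summed to 3832 to 4571. Macrophage markers (8 of 12) summed to 1168 and 694.5 in NC, in MR 640.2 and 1031, and in MRV 634 and 1123. In a bulk sample, fewer cells of a type and less RNA per cell cannot be told apart. The 3' over 5' signal ratio of control transcripts can rise with RNA breakdown. For actin it was 1.61 and 1.91 in NC, in MR 1.44 and 1.70, and in MRV 2.30 and 1.87. For GAPDH it was nearly flat, at 1.56 and 1.59 in NC, in MR 1.53 and 1.57, and in MRV 1.53 and 1.55, and it was lowest in MRV1, where the actin ratio was highest.

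In outline, PDK4 and ANGPTL4 were lowest in both MR animals and highest in an MRV animal. CPT1B was highest in NC, lowest in MR and in between in MRV, while HADHA and HADHB had the opposite order. RXRG was higher in both NC animals than in any lesioned animal. LPL separated no groups.

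**Figure D1:**
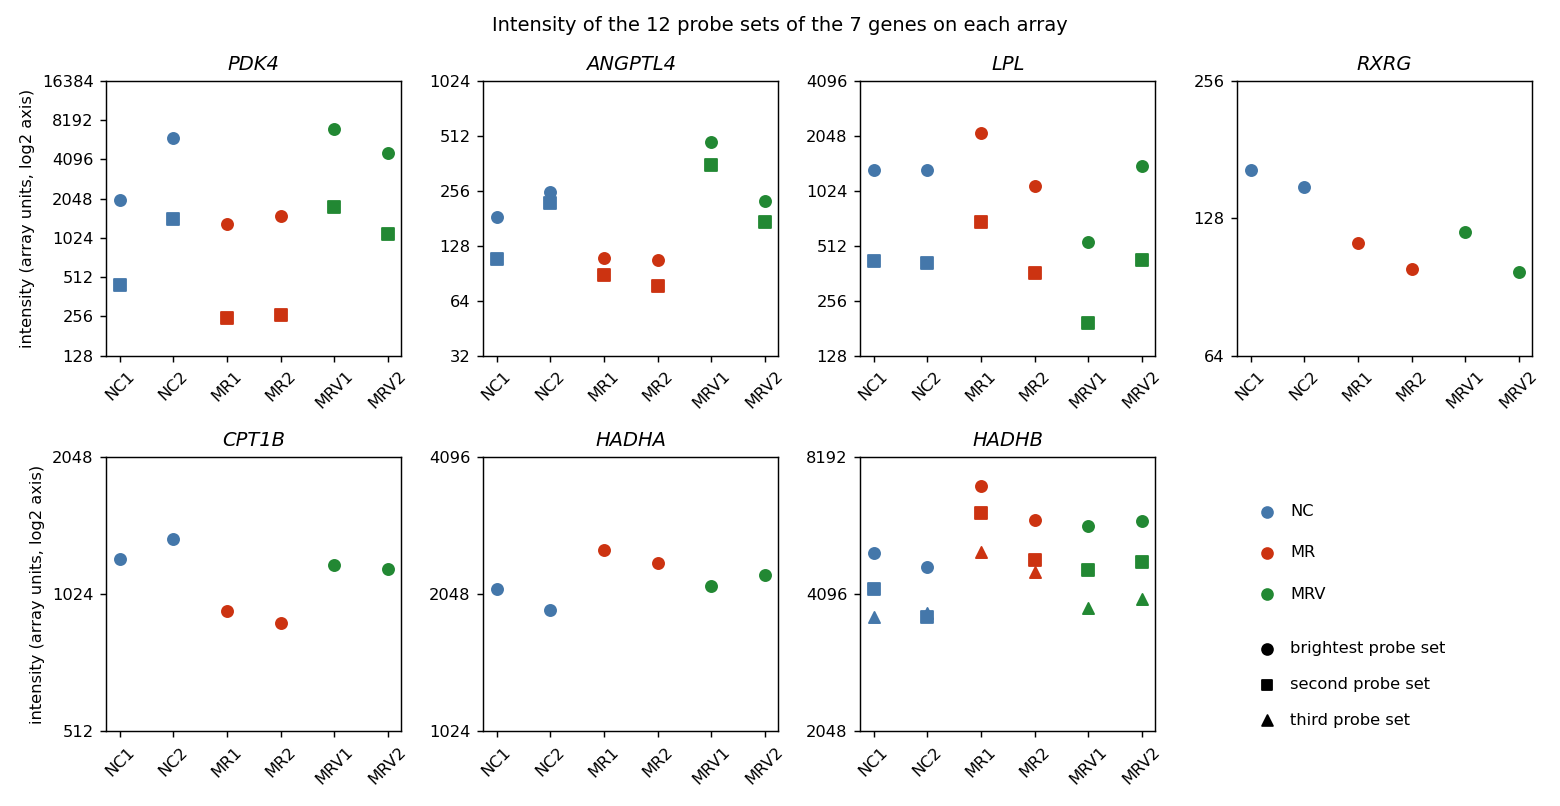
Intensity of each of the 12 probe sets (log2 axis, array units) on the 6 arrays, coloured by group, with circles, squares and triangles for the brightest, second and last probe set of a gene. The brightest PDK4 probe set was between 1311 and 1501 in MR and reached 7035.5 in MRV1. The probe sets of each gene kept the same order of group means, though the MRV mean of the third HADHB probe set lay closer to NC.

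PDK4 encodes pyruvate dehydrogenase kinase 4, which phosphorylates and so shuts the pyruvate dehydrogenase complex, sparing glucose while fatty acids are burned. Its brightest probe set read 2003 and 5943 in the NC animals, 1311 and 1501 in the MR animals, and 7035.5 and 4614.5 in the MRV animals. Both MR values lay below the other 4. NC1 sat near MR, NC2 lay between the MRV values, and so the NC and MRV groups overlapped. Means were 3973 ± 2786 in NC, 1406 ± 134 in MR and 5825 ± 1712 in MRV (SD, n = 2). The mean in MR was 2.83 times lower than in NC, with a log2 difference of -1.29 (SE 0.50), and that in MRV was 4.14 times higher than in MR, with a log2 difference of 2.01 (SE 0.50). Log2 differences here and below are on the scale of log2(intensity + 16), with the moderated standard error (SE) of the fit to all probe sets.

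The second PDK4 probe set read 443 and 1430.2 in NC, in MR 250.1 and 263, and in MRV 1777 and 1102. Its log2 differences were larger, at -1.58 (SE 0.53) for MR minus NC and 2.38 (SE 0.53) for MRV minus MR. By absolute size the latter was number 4 among the 14399 tested probe sets, and that of the brightest probe set was number 11. Over the 6 arrays the PDK4 probe sets correlated at r = 0.998.

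The spread between animals of a group was also wide for PDK4. Its residual standard deviation of 0.69 on the log2 scale exceeded that of 98.3% of the tested probe sets. Most of that came from NC, where NC2 read 2.97 times NC1, while the MR animals differed by 1.14 times and the MRV animals by 1.52 times. The size of the MR minus NC difference therefore hung on the control animal: it was -0.51 without NC2 and -2.07 without NC1 for the brightest probe set, and -0.75 and -2.41 for the second. MRV minus MR varied less, from 1.71 without MRV1 to 2.31 without MRV2. With the actin ratio as covariate it was 0.83 (SE 0.55), and MR minus NC was -0.82 (SE 0.38). The 28S ribosomal RNA control, at 117 and 468 in NC, in MR 187 and 279.9, and in MRV 341 and 559, also differed between the NC animals. With it as a covariate MRV minus MR was 1.47 (SE 0.41).

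Against NC, the MRV mean of PDK4 was 1.47 times higher, a log2 difference of 0.72 (SE 0.50) with overlapping groups. Without NC1 it was -0.06 and without NC2 it was 1.50. With the actin ratio as covariate it was 0.02, and 0.07 for the second probe set.

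ANGPTL4, the lipase inhibitor, is itself a classical PPAR target. Its brightest probe set read 183 and 254 in NC, in MR 109.8 and 107, and in MRV 473 and 225. Again the MR animals were below all others, MRV1 was highest, and NC2 lay between the MRV values. Group means were 218.5 ± 50.1 in NC, 108 ± 2.19 in MR and 349 ± 175 in MRV. MR was 2.02 times lower than NC (log2 difference -0.90, SE 0.34), and MRV was 3.22 times higher than MR (log2 difference 1.47, SE 0.34).

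The second ANGPTL4 probe set read 108.5 and 219.9 in NC, in MR 88.3 and 77.0, and in MRV 355 and 174, with log2 differences of -0.80 (SE 0.41) and 1.43 (SE 0.41). In NC its values were 2.03 times apart, against 1.39 times for the brightest. MR minus NC was -0.34 without NC2 and -1.26 without NC1 for this probe set. With the actin ratio as covariate it was -0.58 (SE 0.27) for the brightest and -0.43 (SE 0.32) for the second. Without MRV1, MRV minus MR was 0.96 and 0.95 for the brightest and the second probe set, and with the actin ratio as covariate it was 0.68 (SE 0.38) and 0.51 (SE 0.46). Against NC, ANGPTL4 in MRV differed by 0.57 (SE 0.34) and 0.63 (SE 0.41) on the log2 scale, with overlapping groups. For the brightest this was 0.06 without MRV1, 1.08 without MRV2 and 0.10 with the actin ratio as covariate.

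PDK4 and ANGPTL4 thus ranked the arrays alike: MRV1, then NC2, MRV2 and NC1, with the MR animals last. In MR both genes varied little, and the animals that raised the spread in NC and MRV were the same for both. Relative to the mean of the 6 arrays, the brightest PDK4 probe set stood at 1.21 in MRV1, 0.97 in NC2 and 0.61 in MRV2 on the log2 scale. ANGPTL4 stood at 1.19 in MRV1 but only at 0.33 in NC2 and 0.17 in MRV2.

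**Figure D2:**
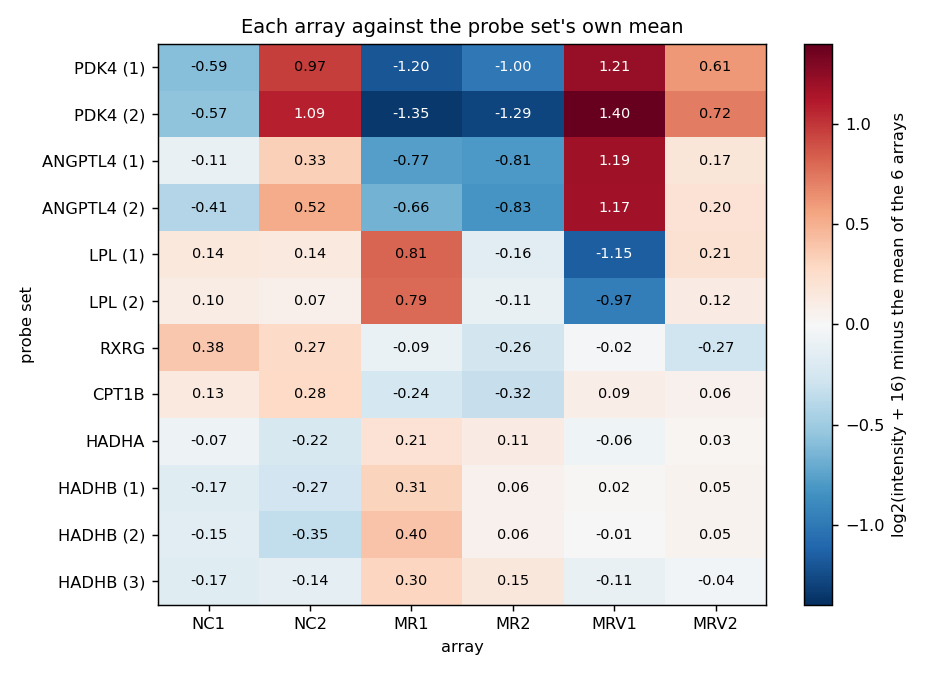
Deviation of each array (columns) from the mean of the 6 arrays for the 12 probe sets (rows), in units of log2(intensity + 16), red above and blue below that mean. PDK4 and ANGPTL4 are blue in both MR columns and red in NC2, MRV1 and MRV2, and LPL is darkest in MRV1.

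LPL encodes lipoprotein lipase, which frees fatty acids from circulating triglyceride and is made by muscle, fat and macrophages. Its brightest probe set read 1336 and 1334 in NC, in MR 2133 and 1082.5, and in MRV 534 and 1399.9. The NC animals were nearly equal, and the extremes were 1 animal of each lesioned group: MR1 was highest and MRV1, the animal with the most ANGPTL4, was lowest. Neither lesioned group separated from the other or from NC. Means were 1335 ± 1.48 in NC, 1608 ± 743 in MR and 967 ± 612 in MRV.

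The other LPL probe set repeated this, with 421 and 411.5 in NC, in MR 691 and 362.5, and in MRV 192 and 426. Log2 differences of the brightest probe set were 0.19 (SE 0.50) for MR minus NC, -0.80 (SE 0.50) for MRV minus MR and -0.61 (SE 0.50) for MRV minus NC. Without MR1 the first was -0.30, and without MRV1 the second was -0.12 and the last 0.07. With the actin ratio as covariate all 3 turned sign, to -0.31, 0.44 and 0.13. The residual standard deviation of LPL exceeded that of 98.2% of the tested probe sets.

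CPT1B encodes the muscle form of carnitine palmitoyltransferase 1, the gate of fatty acid entry into mitochondria. It read 1222 and 1354.5 in NC, in MR 938 and 885, and in MRV 1183 and 1164. The 3 groups did not overlap: NC was highest, MRV intermediate and MR lowest. Means were 1288 ± 94.0, 912 ± 37.6 and 1174 ± 13.9 in NC, MR and MRV. The log2 differences were -0.49 (SE 0.11) for MR minus NC, 0.36 (SE 0.11) for MRV minus MR and -0.13 (SE 0.11) for MRV minus NC. No array decided the sign of the first of these or, in contrast to PDK4, its rough size. It ran from -0.56 without NC1 to -0.42 without NC2. MRV minus MR ran from 0.32 without MR2 to 0.40 without MR1 and was 0.31 with the actin ratio as covariate. MRV minus NC was -0.20 without NC1 and -0.06 without NC2. The residual standard deviation of CPT1B was larger than that of only 14.2% of the tested probe sets.

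HADHA and HADHB encode the alpha and beta subunits of the mitochondrial trifunctional protein, which carries out the later steps of long-chain beta oxidation. The genes are neighbours in RefSeq (assembly Sscrofa11.1), with no protein-coding gene between them. HADHA read 2105 and 1893 in NC, in MR 2555 and 2393, and in MRV 2128 and 2260.0. HADHB, by its brightest probe set, read 5038 and 4706 in NC, in MR 7065.5 and 5940.1, and in MRV 5766 and 5909. Both genes placed the 6 arrays in the same order: MR1, MR2, MRV2, MRV1, NC1 and NC2. For each, the 3 groups did not overlap, with MR highest and NC lowest. However, MR2 and MRV2 were close for HADHB, and MRV1 and NC1 were close for HADHA.

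Means of HADHA were 1999 ± 149.8 in NC, 2474 ± 115 in MR and 2194 ± 93.1 in MRV. Those of HADHB were 4872 ± 235, 6503 ± 796 and 5837 ± 101. MR exceeded NC by a log2 difference of 0.31 (SE 0.11) for HADHA and 0.41 (SE 0.12) for HADHB. MRV minus MR was -0.17 (SE 0.11) and -0.15 (SE 0.12), and MRV minus NC was 0.13 (SE 0.11) and 0.26 (SE 0.12). For HADHB, MRV minus MR was -0.03 without MR1 and -0.27 without MR2, and MR minus NC was 0.29 without MR1. For HADHA, MRV minus NC was 0.06 without NC2 and 0.21 without NC1. With the actin ratio as covariate MRV minus MR was -0.01 for HADHA and 0.03 for HADHB, and MRV minus NC was 0.23 and 0.37.

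The other HADHB probe sets gave MR minus NC differences of 0.48 (SE 0.15) and 0.38 (SE 0.11). The second read 4194 and 3656 in NC, in MR 6162 and 4864, and in MRV 4629 and 4809. The third read 3654 and 3730 in NC, in MR 5066 and 4576, and in MRV 3817 and 3988, so that its MRV mean was closer to NC (log2 difference 0.08, SE 0.11) than that of the others. It correlated at r = 0.869 and 0.871 with the others over the 6 arrays, which correlated at r = 0.990 with each other.

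RXRG encodes retinoid X receptor gamma, the form of the PPAR partner found mainly in muscle and brain. It read 163 and 149.8 in NC, in MR 113 and 99.2, and in MRV 119 and 97.8. Both control values were above all 4 values of lesioned animals, and the lesioned groups overlapped. Means were 157 ± 9.62 in NC, 106 ± 9.76 in MR and 109 ± 15.2 in MRV. Log2 differences were -0.50 (SE 0.13) for MR minus NC, -0.47 (SE 0.13) for MRV minus NC and 0.03 (SE 0.13) for MRV minus MR. The last of these changed sign without MR2 (-0.06) or without MRV1 (-0.10). With a pseudocount of 64, in place of 16, its MR minus NC difference was -0.38.

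**Figure D3:**
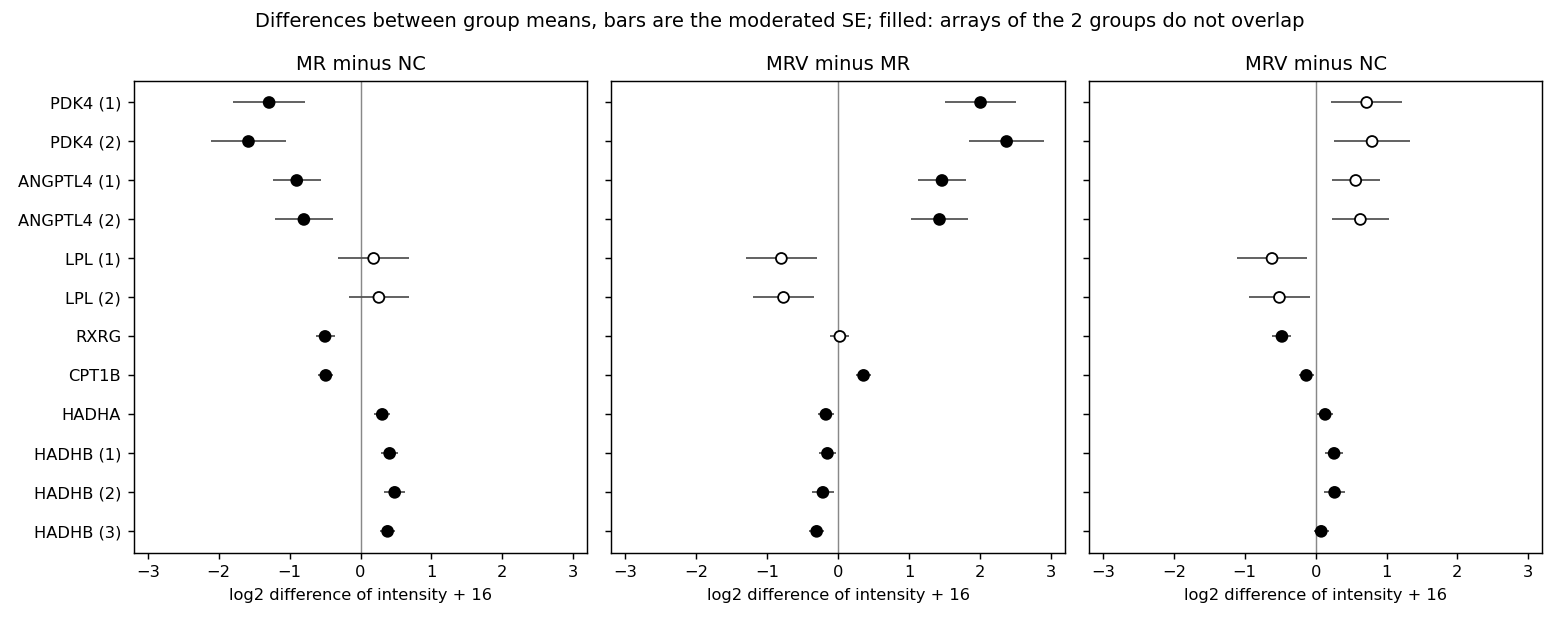
Log2 differences of the 12 probe sets between group means with the moderated SE as bars, for the 3 comparisons; filled points mark groups whose arrays do not overlap and (1) to (3) number the probe sets from the brightest. PDK4 lies at -1.29 and -1.58 for MR minus NC and at 2.01 and 2.38 for MRV minus MR, and RXRG lies at -0.50 and -0.47 in the comparisons of MR and MRV with NC.

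Across the 12 probe sets, 4 were higher and 6 lower in MR than in NC without overlap between arrays, against 14.3% and 12.5% of all 14399 tested probe sets. In MRV against MR, 5 were higher and 4 lower without overlap, against 18.8% and 23.6% of all. For MRV against NC these counts were 4 and 2, against 15% and 18.1% of all. The genes were chosen on these comparisons, so these counts carry no evidence of their own. None of the 12 was called by limma at an adjusted p of 0.05 in any comparison, where 0.00694% of all probe sets were called in MR minus NC (1 probe set, of ASNS), 0% in MRV minus MR and 0% in MRV minus NC. The same MR animals enter the first 2 comparisons, so opposite differences in them are not separate observations.

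**Figure D4:**
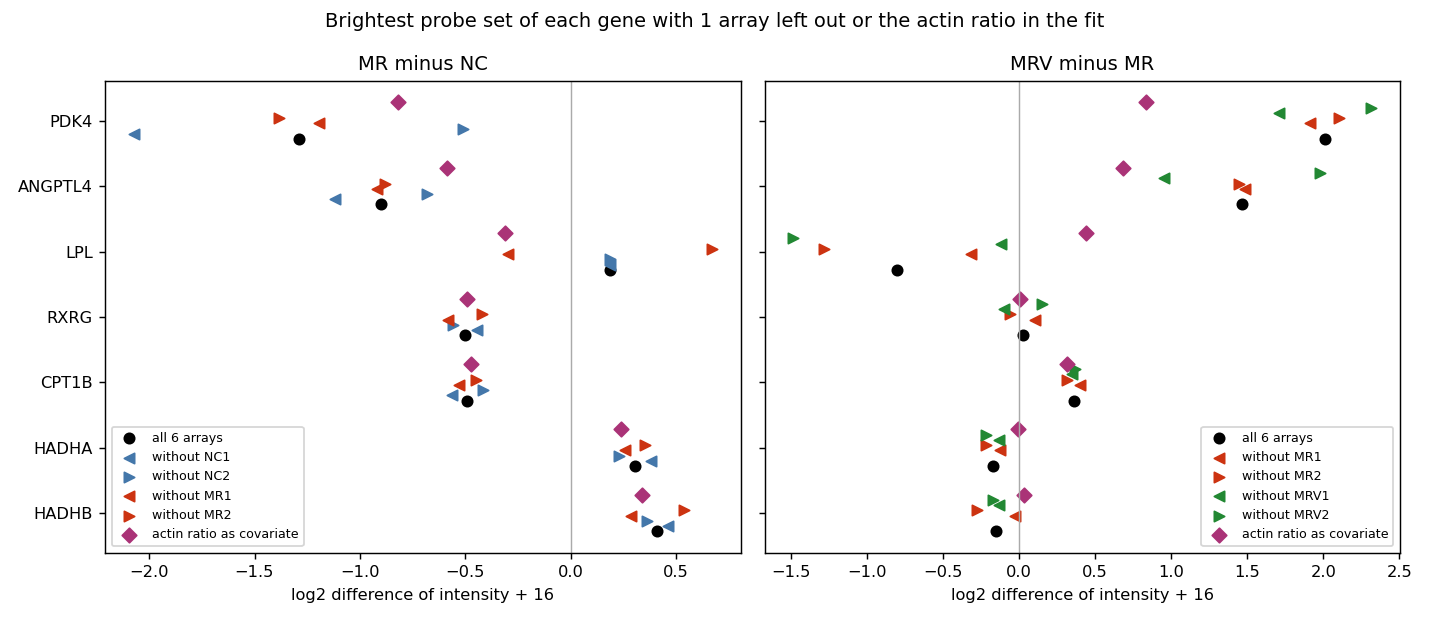
Log2 difference of the brightest probe set of each gene with all 6 arrays (black), with 1 array of the compared groups left out (triangles) and with the actin ratio as covariate (diamonds). For PDK4 in MR minus NC the value moves from -0.51 without NC2 to -2.07 without NC1, whereas CPT1B stays between -0.56 and -0.42.

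The rest of the fuel pathways was read through 8 lists with 169 distinct genes, none of them among the 7, of which 98 were tested. With limma, 0 of the 98 passed an adjusted p of 0.05 in MR minus NC, where 6 had an unadjusted p under 0.05 (6.12%, against 4.03% of all probe sets). In MRV minus MR 0 passed and 8 had an unadjusted p under 0.05 (8.16%, against 7.27%), and in MRV minus NC 0 passed and 6 did so (6.12%, against 5.29%). In MR minus NC 38 of the 98 were higher and 60 lower, with a median of -0.04, while 47.4% of all 5407 genes were lower and their median was 0.01. In MRV minus MR 40 were higher and 58 lower, with a median of -0.05, and 57.6% of all genes were lower with a median of -0.03.

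Genes known as PPAR targets were lower in MR for 12 of 14 tested members, with a median log2 difference of -0.20, and higher in MRV than in MR for 9 of 14, with a median of 0.05. TXNIP, an inhibitor of thioredoxin and of glucose uptake, read 8740.2 and 10674 in NC, in MR 7043 and 8001, and in MRV 10668 and 10292. The MR animals were lowest and NC1 came next, as for PDK4. Its log2 differences were -0.36 (SE 0.14) and 0.48 (SE 0.14), with limma adjusted p = 0.999955 and 0.587. CPT1A, the liver form of the carnitine transferase that CPT1B represents in muscle, read 371 and 316 in NC, in MR 264 and 298, and in MRV 426 and 349, with log2 differences of -0.27 and 0.44. The 5 members lower in MRV than in MR included FABP3 (-0.34), ETFDH (-0.23) and ACADVL (-0.08), whose values are given below. The MR minus NC median of this list was -0.13 without NC2, and its MRV minus MR median was 0.16 with the 28S control and 0.00 with the actin ratio as covariate.

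Genes of fatty acid uptake and activation were lower in MR than in NC for 7 of 12 members (median -0.07) and lower in MRV than in MR for 8 of 12 (median -0.05). The first median was -0.01 without MR1 and 0.02 with the actin ratio as covariate. The second was -0.11 without MR1, -0.01 without MR2 and -0.14 without MRV1. ACSL6, an acyl-CoA synthetase, read 1596 and 974 in NC, in MR 513 and 546, and in MRV 716 and 429, so that MR minus NC was -1.21 on the log2 scale (SE 0.31, limma adjusted p = 0.999955). Like RXRG it was above all lesioned animals in both controls. Its other probe set differed by -1.07. ACSL1, the main acyl-CoA synthetase of heart, read 2731 ± 484 in NC, 2014 ± 246 in MR and 2142 ± 269 in MRV. FABP3, the heart fatty acid binding protein, read 6145 ± 442 in NC, 5582 ± 812 in MR and 4414 ± 709 in MRV, and DBI, an acyl-CoA binding protein, read 4185 ± 483, 4836 ± 144 and 3716 ± 339.

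Among partners of lipoprotein lipase and lipolysis, 6 of 10 were lower in MR than in NC (median -0.08) and 6 of 10 lower in MRV than in MR (median -0.03). The first median was -0.19 without NC2 and -0.01 without MR2, and the second was 0.03 without MR1 and 0.04 with the actin ratio as covariate. GPIHBP1, which holds the lipase on the capillary wall, read 183 ± 18.8 in NC, 163 ± 18.4 in MR and 141.5 ± 1.41 in MRV. ABHD5, the activator of triglyceride lipase, read 612 and 392 in NC, in MR 270.2 and 283, and in MRV 318 and 386, and LIPE, hormone-sensitive lipase, read 176 and 189 in NC, in MR 112 and 98.0, and in MRV 198 and 119. For both, the MR animals were below the other 4, as they were for PDK4 and ANGPTL4. LIPE also belongs to the adipocyte markers, all 8 tested members of which were lower in MR than in NC (median -0.49, which was -0.16 without NC1 and -0.80 without NC2) and 4 of 8 higher in MRV than in MR. APOE, the apolipoprotein by which cells take up lipoprotein remnants, read 270 ± 89.5, 159 ± 14.8 and 228 ± 26.9 in NC, MR and MRV.

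In the mitochondrial beta oxidation list, apart from the trifunctional protein, 10 of 19 genes were higher in MR and 9 lower, with a median of 0.00. HADHA and HADHB, at 0.31 and 0.41, lay above the list's median, which was -0.08 without NC1, but they were chosen with these differences known. Members of the list ran from -0.60 for ACADL to 0.32 for DECR1, which exceeded HADHA. In MRV 14 of 19 were lower than in MR (median -0.09). ACADVL, the very long-chain acyl-CoA dehydrogenase that acts before the trifunctional protein, read 2082 ± 164 in NC, 1751 ± 59.5 in MR and 1652 ± 18.7 in MRV. Its log2 differences were -0.25 for MR minus NC, -0.08 for MRV minus MR and -0.33 for MRV minus NC. The other ACADVL probe set did not repeat the last 2, with -0.18, 0.17 and -0.01. ACADM, for medium chains, read 5990.05 ± 449, 5739 ± 172 and 5875.5 ± 17.4, and HADH, for short chains, read 3903 ± 601, 4134 ± 25.7 and 3891 ± 142. HSD17B10, which handles short and branched chains, read 1416 ± 266, 1129 ± 21.3 and 1111 ± 27.2. ACAD9, a further acyl-CoA dehydrogenase, read 189.5 ± 27.6, 199 ± 1.98 and 164 ± 9.97, and ETFDH, which passes electrons from these enzymes to ubiquinone, read 1769 ± 209, 1814 ± 108 and 1544 ± 4.88.

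Of the carnitine shuttle 4 of 6 tested genes were lower in MR than in NC (median -0.04) and 4 of 6 higher in MRV than in MR (median 0.09). The first of these medians was 0.02 without NC2, and the second was -0.05 with the actin ratio as covariate. The carnitine-acylcarnitine carrier SLC25A20 read 488 ± 15.3 in NC, 416 ± 31.5 in MR and 455 ± 74.6 in MRV. PRKAA2, the catalytic alpha 2 subunit of AMP-activated kinase, read 1204 and 2056 in NC, in MR 1547 and 1514, and in MRV 1874 and 1966. CPT2, the inner carnitine transferase, was below the filter, at 40.4 to 55.7. Of the peroxisomal oxidation list 5 of 8 were lower in MR than in NC (median -0.07) and 6 of 8 lower in MRV than in MR (median -0.13). The former median was 0.03 without NC1, and the latter was 0.01 with the 28S control as covariate. It held ABCD3, a peroxisomal membrane transporter, at 1134 ± 177, 1437 ± 156 and 926 ± 134, ACOX3, an oxidase of branched-chain acyl-CoA, at 173 ± 27.3, 222 ± 5.02 and 201 ± 25.6, and SCP2, a thiolase and lipid carrier, at 3005 ± 425, 2969 ± 19.0 and 2637 ± 59.7.

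On the glucose side, 13 of 22 genes were lower in MR than in NC (median -0.03) and 16 of 22 lower in MRV than in MR (median -0.07). The MR minus NC median was 0.04 without NC1 and 0.05 without MR2, and that of MRV minus MR was 0.06 with the actin ratio and 0.03 with the 28S control as covariate. PDK3, another pyruvate dehydrogenase kinase, was highest in both MR animals, where PDK4 was lowest, at 82.0 ± 13.4 in NC, 99.3 ± 2.55 in MR and 67.0 ± 7.71 in MRV, so that MRV minus MR was -0.48 on the log2 scale (SE 0.14, limma adjusted p = 0.587). PFKM, muscle phosphofructokinase, read 3508 and 4340 in NC, in MR 5271 and 4164, and in MRV 2414 and 3464. GPI, which makes fructose 6-phosphate, read 4615 ± 4.38, 4160 ± 129 and 4243 ± 10.5. PDK1 and PDK2 were not measured by a probe set with a single symbol.

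Among receptors and coregulators 9 of 14 were lower in MR than in NC (median -0.06) and 9 of 14 higher in MRV than in MR (median 0.07). Without MR1 the first median was 0.07, and with the actin ratio as covariate the second was -0.07. Of the PPAR partners of RXRG, PPARA read 14.1 to 16.8 and PPARG 34.1 to 92.9, and the sister receptor RXRA read 43.4 to 64.1. These 3 fell under the filter, which uses the mean over all 6 arrays. The partner PPARD passed it and read 236 ± 29.3 in NC, 257 ± 1.77 in MR and 271 ± 30.3 in MRV, and RXRB read 108 ± 16.9, 115 ± 1.56 and 111 ± 1.20. For PPARD, MR minus NC was 0.12 and MRV minus MR was 0.07, against -0.03 and 0.18 for its other tested probe set. LPIN1, lipin 1, a phosphatidate phosphatase and coactivator of PPAR alpha, read 879 and 893 in NC, in MR 686 and 618, and in MRV 767 and 958, with log2 differences of -0.44 (SE 0.14) and 0.39 (SE 0.14) and limma adjusted p = 0.999955 and 0.655. Its other probe set differed by -0.66 and 0.36. HIF1A, the oxygen-regulated transcription factor, read 1339.9 ± 127, 1159.55 ± 67.5 and 1223 ± 18.9, and TFAM, which maintains and transcribes mitochondrial DNA, read 710.2 ± 58.7, 623 ± 20.3 and 741 ± 106. For TFAM, MRV minus MR was 0.24 and MRV minus NC was 0.05, but its other probe set gave -0.04 and -0.14.

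**Figure D5:**
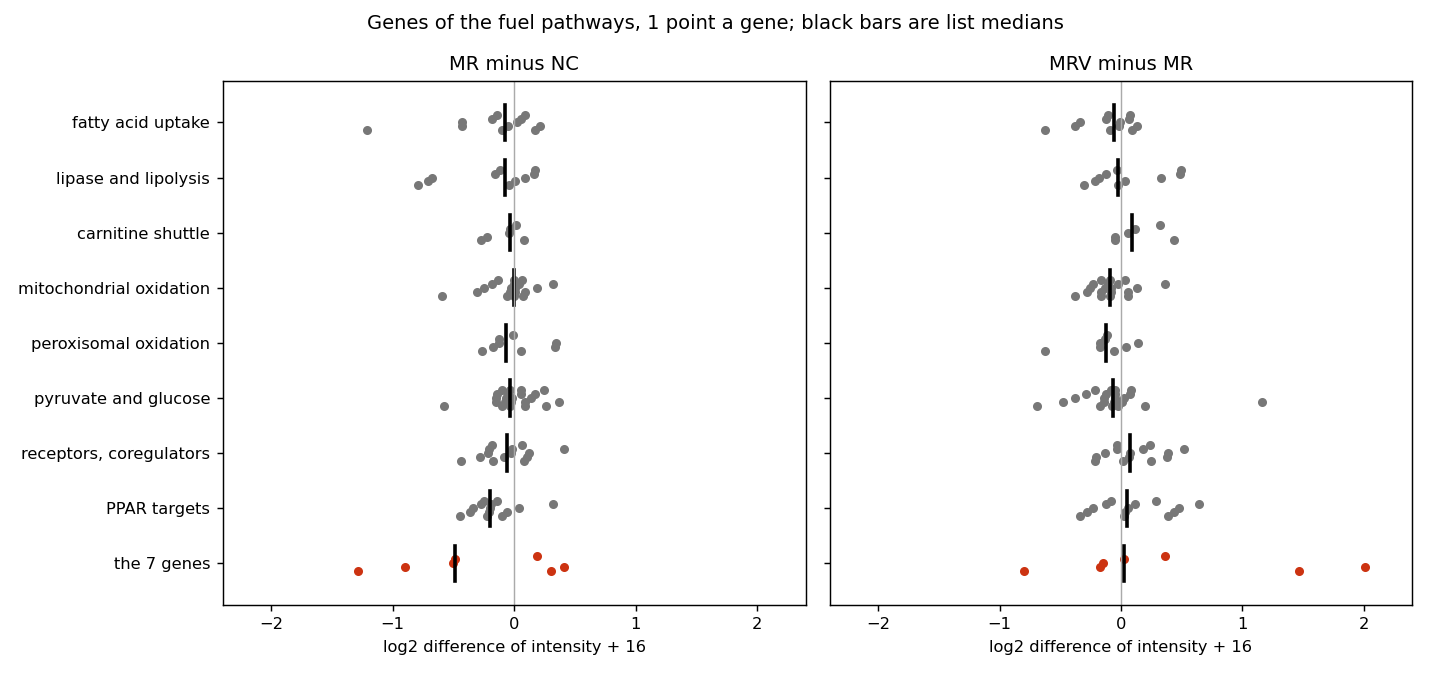
Log2 differences of the tested genes of 8 fuel pathway lists (grey) and of the 7 genes described here (red), for MR minus NC and MRV minus MR, with the median of each list as a black bar. Medians of the 8 pathway lists lie between -0.20 and 0.09, and those of the 7 genes at -0.49 and 0.03. PDK4 and ANGPTL4 lie outside the range of the 98 listed genes in MRV minus MR, but the 7 genes were chosen with these differences known.

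The genes most like each of the 7 over the 6 arrays were picked by Pearson's r of log2(intensity + 16) among 5406 genes, as a description without a test. With so few arrays 19 to 42 genes exceeded r = 0.9 for each. For PDK4 they were TBCD (r = 0.976), NELFCD (r = 0.973) and TXNIP (r = 0.966), and for ANGPTL4 they were C5H12orf45 (r = 0.973), SMTN (r = 0.967) and MRPL48 (r = 0.949). WFDC3 (r = 0.994), QSOX1 (r = 0.988) and SMYD2 (r = 0.963) were nearest to LPL, and SMYD2 read 252 in MRV1 and 567 to 775 elsewhere. The nearest to CPT1B were ZNF574 (r = 0.979), BRPF1 (r = 0.963) and LOC100738134 (r = 0.953). RXRG was followed by YIF1B (r = 0.979), PYGM (r = 0.967) and GID8 (r = 0.965). PYGM, the muscle glycogen phosphorylase, read 3035 and 2651 in NC and 1753 to 2024 in the lesioned animals. The nearest to HADHA were INHA (r = 0.992), FTH1 (r = 0.990) and DAZAP2 (r = 0.984), and to HADHB they were NUBP1 (r = 0.986), TOMM34 (r = 0.984) and RABEP2 (r = 0.981). TXNIP was the 1 gene of the 8 lists among these 21.

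The arrays in descending order of the actin ratio were MRV1, NC2, MRV2, MR2, NC1 and MR1, and in that of PDK4 they were MRV1, NC2, MRV2, NC1, MR2 and MR1. In the ratio NC overlapped with each lesioned group, but both MRV arrays lay above both MR arrays. The NC animals differed in it in the same direction as in PDK4. MYL2 was higher in both MR animals than in the other 4. Beyond the covariate values given above, the part of the actin ratio in the values of the 7 genes was not tested. The part of MYL2, of the adipocyte sum and of the macrophage sum was not tested either.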

How the data were processed

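Total RNA of 6 left atria was hybridised to a porcine Affymetrix array. The authors deposited linear intensities, 1 for each probe set on each array. MAS5 and RMA appear without versions in the submitters' processing notes, and the sources used here do not tell which of them produced these values. Depth has no meaning for arrays, and their number limits the precision. Groups and numbers came from the sample titles, and the design text counts 6 separate pigs.

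Control probe sets (124 of 24123) were left out, and of the remaining 23999 those with a mean of log2(intensity + 16) under the 40th percentile were not tested, which left 14399. Symbols came from the platform annotation (1 symbol for 10069 probe sets, several for 198, none for 13732). All 7 genes were found by Entrez ID in the RefSeq table with an unchanged symbol. With R 4.3.3 and limma 3.58.1, lmFit and eBayes estimated group means from all 6 arrays (3 residual and 2.81 prior degrees of freedom), with Benjamini-Hochberg adjustment over the 14399 probe sets. The fit was tested on simulated data. For lists, a gene was represented by its brightest tested probe set.

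The 7 genes, the 8 pathway lists and 7 marker lists (endothelial, macrophage, fibroblast, smooth muscle, adipocyte, atrial and ventricular muscle) were chosen with earlier results of these data known. Named genes were the 7, up to 4 genes per pathway list by moderated statistic (2 each from MR minus NC and MRV minus MR), direct partners of the 7 where measured, and the 3 genes nearest to each of the 7 by correlation. Fibroblast markers (8 of 10 on the array) summed to 7707 to 11318 and smooth muscle markers (5 of 9) to 7325 to 9053. Alternatives were other pseudocounts, no filter, quantile normalization, median centring, an intensity trend in eBayes, the compared groups alone, a replicate block, the actin ratio or the 28S control as a covariate, and leaving out each array. For list medians, the mean over all tested probe sets of a gene was a further alternative. The 28S covariate was chosen after the data had been seen.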

Additional observations from a re-analysis of the deposited data

How the results depend on the processing

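The number of probe sets called in MR minus NC was 1, and it was 0 with a pseudocount of 1, no filter, quantile normalization, median centring, an intensity trend, the compared arrays alone, the replicate block, the actin ratio and the 28S control, and 1 with a pseudocount of 64. Leaving out each array in turn gave 0 to 0 calls in all 3 comparisons. In MRV minus MR 2 probe sets were called with the replicate block and 1 with the 28S control, against 0. None of the 98 pathway genes (114 without the filter) was called by limma under any of the 10 other settings or the 6 left-out arrays. Whether the replicate numbers pair the animals is not known, since no label ties the numbers to a litter or day. Same-numbered deviations correlated at 0.343 between NC and MR, 0.206 between NC and MRV and 0.018 between MR and MRV. These 3 values cannot decide it. The block cannot alter a difference of group means here, since each number occurs in every group. Of 216 log2 differences of the 7 genes under the 6 settings with all arrays that could alter them, 17 moved by more than 1 residual SD and 8 changed sign. All 8 changes of sign came with the actin ratio as a covariate, 6 for LPL and 2 for HADHB in MRV minus MR. With 1 array of the compared groups left out, 28 of 144 moved that far and 8 changed sign, for LPL, for RXRG in MRV minus MR and for PDK4 in MRV minus NC. Of the 24 pathway list medians, 17 of 192 values changed sign under the 8 settings that could alter them, and 14 of 96 with 1 array left out. The cause was not tested. With 2 animals per group, only large and even differences could be called.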
